A study of Mus musculus with 8 samples.

Results

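Hippocampal RNA was examined for 10 genes that glucocorticoids are known to induce: Sgk1, Tsc22d3, Zbtb16, Cdkn1a, Ddit4, Mt1, Mt2, Plin4, Pdk4 and Errfi1. They were taken by gene symbol from the deposited table of 24527 genes, where all 10 were found, and all 10 passed the filter on low counts that left 15434 genes for testing. The animals were wild-type C57BL/6J male mice aged 20 weeks. The 4 control mice were exposed through their mothers' low-phytoestrogen diet containing 0 mg of BPA per kg, and the 4 BPA mice through that diet at 50 mg per kg, in gestation and lactation. BPA stands for bisphenol A, a building block of polycarbonate plastics with weak oestrogen-like activity. All were kept on the control diet from weaning on postnatal day 21, with no BPA in the diet from then on. The series title names depressive-like behaviour and altered neuroactive steroids after BPA, and the comparison here was of adult hippocampal transcripts between exposed and unexposed males. The submitters call the 4 animals of a group independent replicates, but the labels do not say whether their litters differed, so the tests measure the spread between these animals. The 10 genes were chosen by name, selected on an earlier result of this same comparison: the log2 fold changes of glucocorticoid-induced genes, as a list, had been found higher in BPA mice. Their BPA differences below are therefore a description and were not used as support for anything else.

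Corticosterone, the main glucocorticoid of mice, enters cells and binds the glucocorticoid receptor (Nr3c1) and, with higher affinity, the mineralocorticoid receptor (Nr3c2), both abundant in hippocampal neurons. The bound receptor moves to the nucleus and attaches as a dimer to glucocorticoid response elements, palindromes made of a pair of hexamers, often far from the start site. The induced genes include a kinase that acts on ion channels (Sgk1), an anti-inflammatory leucine zipper protein (Tsc22d3, also called GILZ), metal-binding metallothioneins and regulators of growth and fuel use. Several of them also respond to other stimuli, such as metals, hypoxia, fasting or DNA damage.

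RefSeq promoter windows of GRCm38.p6, from 250 bases before to 50 bases after a start site, were found for 9 of the 10 genes (18 windows, as some genes have several starts). The full palindrome (AGAACA, any 3 bases, then TGTTCT), searched on both strands, was present in 3 of 32851 windows of all genes (0.00913%), and 1 of the 3 was an Sgk1 window. It lay at -189 to -175 from one of the alternative Sgk1 start sites (GRCm38, chr10:21993701-21993715). The single hexamer AGAACA, read on both strands and counted also where it forms part of the palindrome, was in 4 of the 18 windows, 3 of Sgk1 and 1 of Tsc22d3, and in 19.0% of all windows. The core of the metal response element, TGCGCNC or TGCACNC on either strand, was in 4 of the 18 windows, 1 each of Mt1, Mt2, Ddit4 and Sgk1, and in 25.7% of all windows. The Mt2 window held 4 such cores and the Mt1 window 3, and 0.517% of all windows held 4 or more. The 250 bases before the start are printed 5′ to 3′ for these 3 windows, because Sgk1 held the palindrome and the metallothioneins held the most metal cores. Capitals mark the palindrome and a separate hexamer in Sgk1 and the metal cores in Mt2 and Mt1. The printed Mt2 stretch holds 3 of its 4 cores and the printed Mt1 stretch 1 of its 3, the rest lying after the start. The Sgk1 stretch is chr10:21993640-21993889, the Mt2 stretch chr8:94172368-94172617 and the Mt1 stretch chr8:94178839-94179088, all on the plus strand. A match describes letters only, and no binding was measured.
Sgk1: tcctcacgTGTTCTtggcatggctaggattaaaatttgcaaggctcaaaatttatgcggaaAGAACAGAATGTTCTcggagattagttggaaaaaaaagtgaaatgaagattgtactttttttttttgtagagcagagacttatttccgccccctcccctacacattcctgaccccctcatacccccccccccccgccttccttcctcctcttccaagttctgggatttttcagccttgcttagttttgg
Mt2: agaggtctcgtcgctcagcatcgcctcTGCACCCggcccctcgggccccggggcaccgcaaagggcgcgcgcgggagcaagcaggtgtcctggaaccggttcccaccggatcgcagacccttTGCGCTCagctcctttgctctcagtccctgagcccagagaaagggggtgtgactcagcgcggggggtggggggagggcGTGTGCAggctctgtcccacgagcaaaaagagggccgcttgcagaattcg
Mt1: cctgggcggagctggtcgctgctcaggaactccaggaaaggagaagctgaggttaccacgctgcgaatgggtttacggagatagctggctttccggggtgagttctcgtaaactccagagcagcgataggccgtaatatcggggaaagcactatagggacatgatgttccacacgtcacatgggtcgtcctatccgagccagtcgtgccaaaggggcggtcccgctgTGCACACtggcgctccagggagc

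The libraries held 27.1 to 40.8 M counts in controls and 43.1 to 54.0 M in the BPA group, so every BPA library was deeper than every control library and depth moved with exposure. Markers of hippocampal excitatory neurons, all 10 of 10 detected, summed to 5310 to 6173 CPM (counts per 1 M counts of a library, after TMM scaling in edgeR) in controls and 5573 to 6045 CPM in the BPA group. Choroid plexus, a secreting tissue next to the hippocampus, was present to unequal extents. Its 12 markers, all 12 detected, summed to 216 to 3182 CPM in controls and 171 to 852 CPM in the BPA group, with mean log2 CPM highest in control replicate 2 (5.57) and BPA replicate 3 (3.85). In bulk tissue, fewer cells of a type and less RNA per cell cannot be told apart. Across all 15434 genes edgeR's quasi-likelihood test with Benjamini-Hochberg adjustment called 0 genes (0% at an adjusted p of 0.05). An unadjusted p under 0.05 was reached by 698, and DESeq2 without the low-count filter called 7.

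All 10 genes had a higher mean in BPA mice than in controls, by 1.04-fold to 1.29-fold, against 50.0% of all genes tested with a log2 fold change above 0. Their median log2 fold change was 0.15, beside 0.000049 over all genes. None of the 10 passed the adjusted threshold (edgeR adjusted p 0.955 to 0.980). The groups did not separate for any of them: 0 of 10 had every BPA library above every control library, where 1.37% of all genes did and 2.79% separated in either direction. The lowest of the 8 libraries was a control for 10 of 10 genes, and the highest was a BPA library for 8 of 10. Both counts follow the direction for which the list was chosen. Their share over all genes was not taken, so nothing is read from them. A difference of 1.5-fold in either direction lay outside the 95% interval for 8 of them, all but Mt2 and Plin4.

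**Figure D1:**
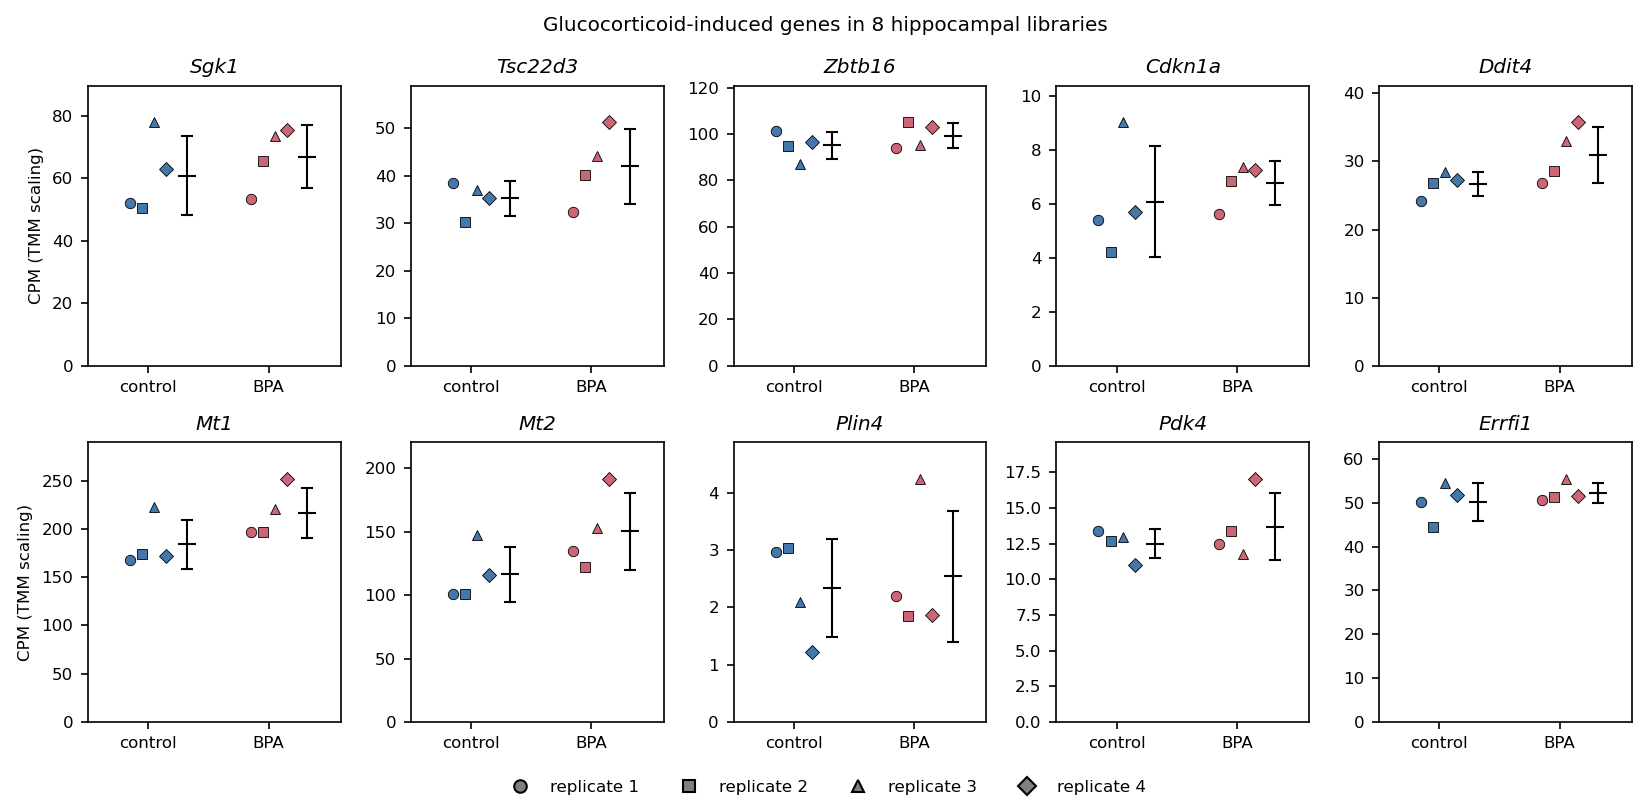
CPM with TMM scaling (y axis, from 0) of each of the 10 genes in the 4 control (blue) and 4 BPA (red) libraries, with the mean and SD of each group as bars. The symbol gives the replicate number, and for every gene the groups overlap.

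The metallothioneins are small cysteine-rich proteins that bind zinc and copper, and Mt2 had the largest difference of the 10 genes. Mt2 (chromosome 8, 94172664 to 94173568; all gene positions are GRCm38 from GENCODE vM21) was at 101, 101, 148 and 116 CPM in control replicates 1 to 4 and at 134, 122, 153 and 192 CPM in BPA replicates 1 to 4. Control replicate 3 lay above BPA replicates 1 and 2, and BPA replicate 4 was the highest. The means were 116 ± 22.0 CPM in controls and 150.4 ± 30.3 CPM in the BPA group (SD, n = 4 each), a log2 fold change of 0.37 ± 0.14 (SE; edgeR adjusted p = 0.955), or 0.23 without BPA replicate 4. Mt1 (chromosome 8, 94179082 to 94180327), its neighbour on the same strand, was at 168, 175, 222 and 172 CPM in controls and at 197, 197, 221 and 252 CPM in the BPA group. Again control replicate 3 stood with the upper BPA libraries, and the other 3 controls lay below all 4 BPA libraries. The log2 fold change of Mt1 was 0.23 ± 0.097 (edgeR adjusted p = 0.955), or 0.15 without BPA replicate 4. As reads from similar parts of paralogs can be split between them in counting, their sum was also taken: 269, 276, 369.8 and 288 CPM in controls and 332, 320, 373 and 444 CPM in the BPA group. The sum averaged 301 ± 46.8 CPM in controls and 367 ± 56.1 CPM in the BPA group, and the ratio of Mt2 to Mt1 counts was 0.630 ± 0.047 in controls and 0.689 ± 0.058 in BPA mice (SD). Mt2 also shares exonic bases with a gene on the opposite strand (Gm45774), and no label states whether counting used strand, which leaves its counts uncertain.

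Tsc22d3, which encodes GILZ (chromosome X, 140539528 to 140600659), was at 38.4, 30.2, 37.0 and 35.2 CPM in controls and at 32.4, 40.1, 44.2 and 51.2 CPM in the BPA group. BPA replicate 1 lay inside the control range and the other 3 BPA libraries lay above all controls. Its log2 fold change was 0.25 ± 0.12 (edgeR adjusted p = 0.955), or 0.14 without BPA replicate 4. Sgk1, the serum and glucocorticoid regulated kinase (chromosome 10, 21882184 to 21999903), had its highest value in a control: 52.1, 50.4, 77.8 and 62.8 CPM in controls and 53.2, 65.5, 73.5 and 75.3 CPM in the BPA group. The spread within each group was wider than the difference between the means, 60.8 ± 12.6 CPM and 66.9 ± 10.1 CPM (log2 fold change 0.14 ± 0.13; edgeR adjusted p = 0.957). Leaving out control replicate 3 raised the Sgk1 value to 0.28, and leaving out control replicate 2 lowered it to 0.060. Zbtb16, a zinc finger transcription repressor also called PLZF (chromosome 9, 48654297 to 48836222), differed by less than its spread within groups, at 102, 95.04, 87.3 and 96.7 CPM in controls and 93.9, 105, 95.4 and 103 CPM in the BPA group (0.062 ± 0.055). Its value was 0.023 without control replicate 3, 0.034 without BPA replicate 2 and 0.095 without control replicate 1.

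Among the growth and stress regulators, Ddit4, an inhibitor of mTOR signalling also called REDD1 (chromosome 10, 59949669 to 59951834), was at 24.2, 26.8, 28.5 and 27.2 CPM in controls and at 26.8, 28.5, 33.0 and 35.7 CPM in the BPA group. BPA replicates 3 and 4 lay above all controls, BPA replicate 2 was level with the highest control, and BPA replicate 1 lay inside the control range. The log2 fold change was 0.22 ± 0.086 (edgeR adjusted p = 0.955), or 0.14 without BPA replicate 4. Cdkn1a, the cell cycle inhibitor p21 (chromosome 17, 29090976 to 29100727), was at 5.41, 4.21, 9.01 and 5.68 CPM in controls and at 5.61, 6.85, 7.35 and 7.26 CPM in the BPA group, so its highest and lowest values were both controls. Its log2 fold change was 0.16 ± 0.19, 0.41 without control replicate 3, 0.019 without control replicate 2 and -0.023 without control replicate 2 and BPA replicate 3 together. Errfi1, an inhibitor of EGF receptor signalling (chromosome 4, 150853919 to 150868892), differed least, at 50.1, 44.4, 54.5 and 51.8 CPM in controls and 50.6, 51.2, 55.5 and 51.6 CPM in the BPA group (0.059 ± 0.061). Without control replicate 2 it was at 0.0039, and without control replicate 2 and BPA replicate 3 together at -0.028. Cdkn1a shares exonic bases with a gene on the opposite strand (AC167363.2), and its counts are uncertain for that reason.

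Pdk4 and Plin4 act in fuel use. Pdk4, a kinase that shuts down pyruvate dehydrogenase (chromosome 6, 5483351 to 5496309), was at 13.4, 12.7, 12.9 and 11.01 CPM in controls and at 12.5, 13.4, 11.8 and 17.1 CPM in the BPA group. BPA replicate 4 alone stood above the rest, and without it the log2 fold change fell from 0.12 ± 0.11 to 0.0029. Plin4, a lipid droplet coat protein (chromosome 17, 56100591 to 56109803), was at 2.96, 3.04, 2.10 and 1.22 CPM in controls and at 2.19, 1.85, 4.24 and 1.87 CPM in the BPA group. Its highest value was in BPA replicate 3, and without that library the log2 fold change went from 0.092 ± 0.30 to -0.27. Plin4 was also negative without control replicate 4 (-0.10). Its exons overlap those of Hdgfl2 on the opposite strand, and its counts are uncertain for the same reason.

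**Figure D2:**
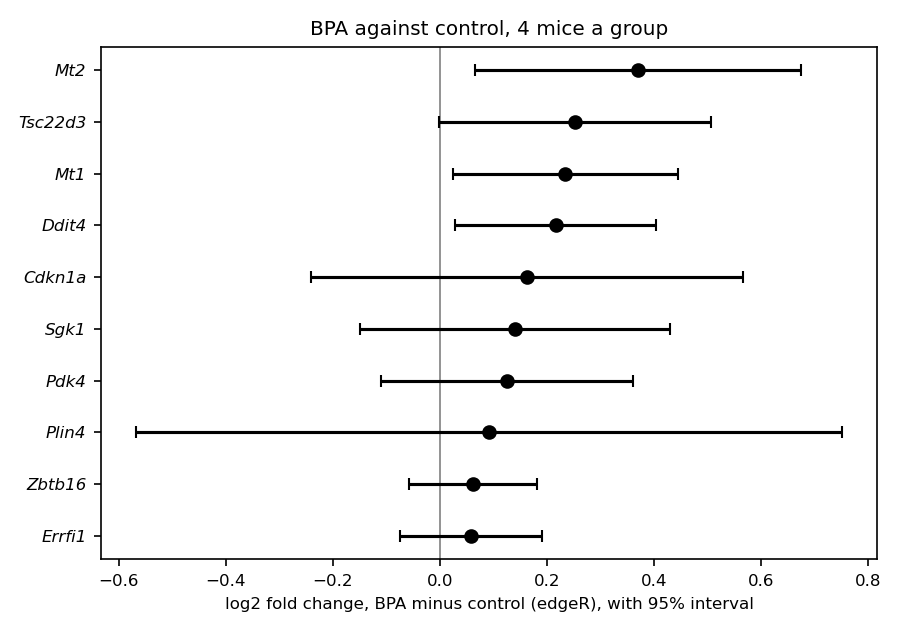
Log2 fold change (x axis, BPA minus control, from edgeR) of the 10 genes with its 95% interval, 4 mice a group. All 10 estimates lie above 0, from 0.059 for Errfi1 to 0.37 for Mt2, and the intervals of Mt2, Mt1 and Ddit4 do not include 0 before adjustment.

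An unadjusted p under 0.05 was reached by 3 of the 10 genes, Mt2 (0.0209), Ddit4 (0.0269) and Mt1 (0.0317), all higher in BPA mice, where 2.22% of all genes had such a p in that direction and 4.52% in either (edgeR). Because the list was proposed from this comparison, nothing is read from that share.

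Levels per length set the genes in an order. Reads scaled to kilobases of GENCODE exonic sequence and library size (RPKM, averaged over the group means) were 227 for Mt2 and 161 for Mt1, whose exonic bases in the annotation cover its whole gene and so lower its value per length. Zbtb16 followed at 18.4, Ddit4 at 16.4, Errfi1 at 14.3, Sgk1 at 13.0 and Tsc22d3 at 8.89. The lowest were Pdk4 at 3.73, Cdkn1a at 1.81 and Plin4 at 0.421 RPKM. From Zbtb16 down to Tsc22d3 each neighbour's range over the 8 libraries overlapped the next, as did those of Mt2 and Mt1. Zbtb16 was above Ddit4 in 6 of 8 libraries, and Errfi1 above Sgk1 in 6 of 8. The ranges of Mt1, Tsc22d3, Pdk4 and Cdkn1a did not overlap that of the gene next below.

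Variation between animals was larger than usual for most of these genes. The biological coefficient of variation of edgeR (the spread between replicate animals beyond counting noise) was above the median of all genes, 7.45%, for 8 of the 10. It was 29.5% for Plin4, 18.2% for Cdkn1a, 13.9% for Mt2, 13.3% for Sgk1, 11.6% for Tsc22d3, 10.7% for Pdk4, 9.98% for Mt1 and 8.58% for Ddit4. Errfi1, at 6.24%, and Zbtb16, at 5.88%, were below it.

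Whether the genes varied together between animals was examined next. To remove the group difference, each library's log2 CPM was taken as a deviation from the mean of its own group, and the 45 pairs of genes were correlated over the 8 libraries. The mean Pearson r was 0.32, beside 0.00027 over all pairs of tested genes, and 20 of the 45 pairs (44.4%) had r of 0.5 or more, beside 13.9% of all pairs. The exact permutation test, which rearranged libraries within groups in every way (smallest possible p 0.00174), gave 9 pairs an unadjusted p under 0.05 and 0 pairs an adjusted p under 0.05 over the 45 pairs, for r or for Spearman's rho. A single pair at the smallest possible p would not pass adjustment over 45 pairs. With library totals in place of TMM scaling the mean r was 0.26. It was 0.22 without BPA replicate 1 and 0.25 without BPA replicate 4.

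The highest value was that of Mt1 with Mt2 (r = 0.95, two-sided exact permutation p = 0.0104, adjusted p = 0.156; rho = 0.83, exact p = 0.0347, adjusted p = 0.234). The value was 0.91 without the 2 libraries farthest from the median of Mt1, 0.93 within controls and 0.98 within BPA mice. Sgk1 and Cdkn1a, which lie on different chromosomes, followed (r = 0.91, exact permutation p = 0.00347, adjusted p = 0.156; rho = 0.95, exact p = 0.00347, adjusted p = 0.156). Leaving out the 2 libraries farthest from the median of Sgk1 gave 0.88, and the values within controls and within BPA mice were 0.94 and 0.98. The other pairs at 0.8 or more were Cdkn1a with Errfi1 (0.86), Ddit4 with Mt2 (0.83), Sgk1 with Mt1 (0.83), Sgk1 with Mt2 (0.82) and Ddit4 with Mt1 (0.82). All 7 pairs, apart from Mt1 with Mt2 named after their values were seen, were positive within controls and within BPA mice, and their r ran from 0.63 to 0.91 without the 2 farthest libraries. Tsc22d3 reached 0.8 with no gene, but its mean r with the other 9 genes was the highest (0.503, beside 0.498 for Mt1). Its r was 0.5 or more with 7 of them, and some of these values rested on few libraries. Without control replicate 2 and BPA replicate 4, r fell from 0.61 to 0.12 with Mt2 and from 0.60 to 0.27 with Mt1. Without the same libraries it went from 0.54 to 0.081 with Pdk4 and from 0.58 to 0.43 with Cdkn1a. With Errfi1 it went from 0.51 to 0.54. With Sgk1 it rose from 0.69 to 0.89 without control replicates 1 and 2. With Ddit4 its r was 0.68, and 0.58 without control replicate 2 and BPA replicate 4, but -0.26 within controls.

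**Figure D3:**
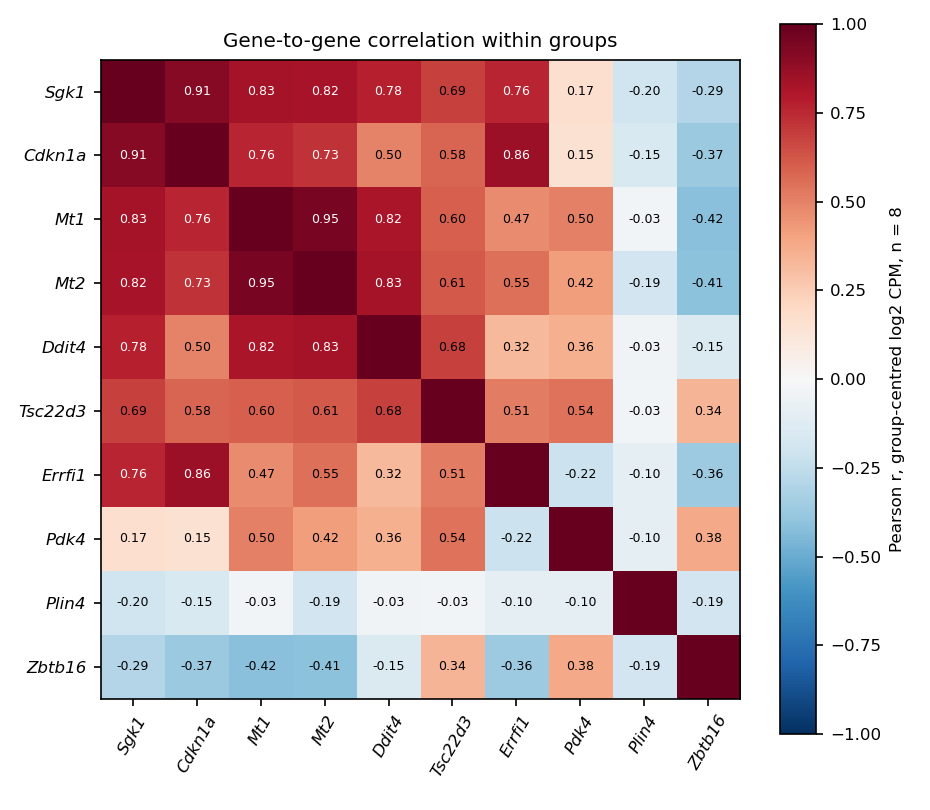
Pearson r between each pair of the 10 genes over 8 libraries after centring log2 CPM on the group mean, on a colour scale from -1 (blue) to 1 (red). The highest value is 0.95, for Mt1 with Mt2, and all values of Plin4 are below 0.

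Plin4 and Zbtb16 had the lowest mean r with the others. Plin4 had a negative r with 9 of 9 other genes, though near 0 (mean -0.11), and Zbtb16 a positive r with 2 of 9 (mean -0.16). For Zbtb16 the sign rested on few animals: its r was negative with 7 of the 9 within controls, with 2 within BPA mice, and positive with 8 of 9 once the 2 libraries farthest from the median of the first gene of each pair were left out. Pdk4 had r of 0.5 or more with 2 genes, Tsc22d3 (0.54) and Mt1 (0.50), which were 0.081 and 0.26 without the 2 libraries farthest from the median of the other gene.

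The deviations were unevenly spread over the libraries. In control replicate 3, 8 of the 10 genes lay above the control mean, with Cdkn1a 0.62, Sgk1 0.38 and Mt2 0.36 log2 units above it. In BPA replicates 3 and 4, 8 of the 10 lay above the BPA mean. Only 2 of the 10 did in BPA replicate 2, and none in BPA replicate 1. The mean log2 CPM of the 10 genes was 4.97, 4.89, 5.15 and 4.88 in control replicates 1 to 4 and 4.97, 5.06, 5.27 and 5.29 in BPA replicates 1 to 4. BPA replicate 1 was thus at the level of control replicate 1, and control replicate 3 stood above BPA replicates 1 and 2. Plin4 weighs on these means, as it lay 0.82 log2 units below its group mean in control replicate 4 and 0.82 above it in BPA replicate 3. In control replicate 4, which had the lowest mean, 6 of the 10 genes lay above the control mean. BPA replicate 4 held the highest of the 8 values for 5 genes, and control replicate 2 the lowest for 4.

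**Figure D4:**
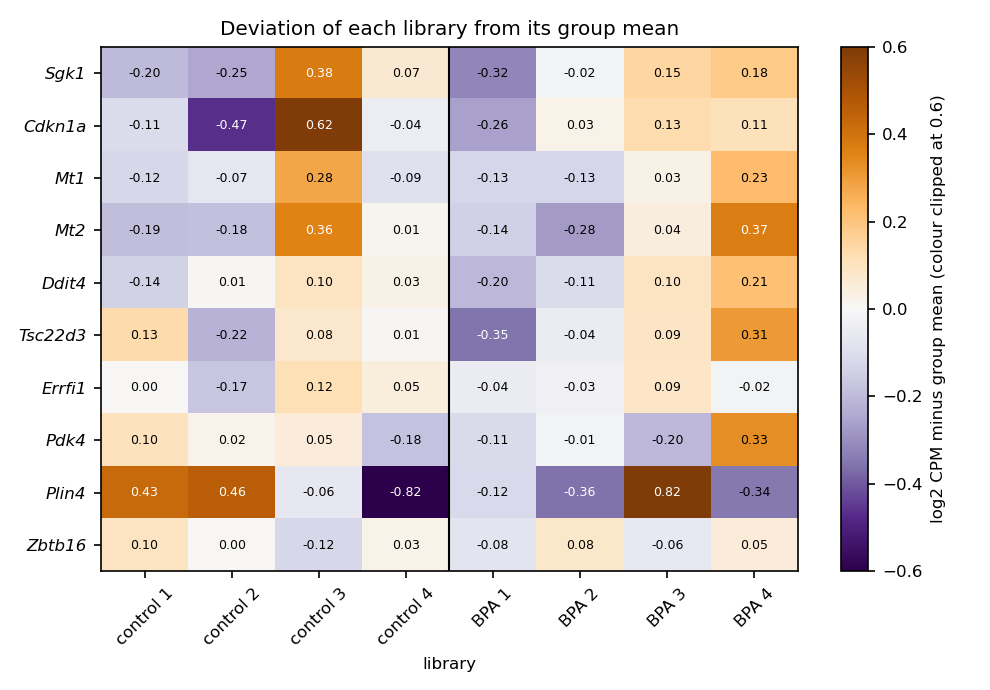
Deviation of log2 CPM from the mean of its own group for the 10 genes (rows) in the 8 libraries (columns), purple below and orange above the mean, with colours clipped at 0.6. Control replicate 3 and BPA replicates 3 and 4 are mostly orange, control replicate 2 and BPA replicates 1 and 2 mostly purple, and Plin4 and Zbtb16 run differently.

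Other genes of the pathway were read from 2 lists. Of 22 further glucocorticoid-induced genes, 21 were tested (Lcn2 was too low), 16 were higher and 5 lower in BPA mice, with a median of 0.075, and 0 passed the adjusted threshold in either direction. The median was 0.042 without control replicate 2, 0.027 without BPA replicate 3, 0.043 without BPA replicate 4 and 0.13 without BPA replicate 1. Fkbp5, a co-chaperone that restrains the glucocorticoid receptor, was the only 1 of the 21 with groups that did not overlap, where 1.37% of all genes were higher without overlap and 2.79% separated in either direction. It was at 54.8, 57.5, 56.6 and 56.6 CPM in controls and 59.7, 61.8, 61.5 and 63.8 CPM in the BPA group (0.13 ± 0.041; edgeR adjusted p = 0.955). Its biological coefficient of variation was 4.43%. Arl4d, a small GTPase, was at 7.44, 5.94, 8.78 and 6.21 CPM in controls and 6.98, 7.63, 9.22 and 10.7 CPM in the BPA group (0.28 ± 0.15, or 0.16 without BPA replicate 4). Control replicate 3 and BPA replicate 4 were again the highest of their groups. Arrdc2, an arrestin-domain protein, had a log2 fold change of 0.25 ± 0.14, or 0.11 without BPA replicate 4. Gpd1, a glycerol phosphate dehydrogenase, was at -0.14 ± 0.094, at -0.048 without control replicate 3, -0.085 without BPA replicate 3 and -0.21 without control replicate 1.

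The receptor machinery had members in both directions. Of 19 genes for receptors, chaperones, coregulators and steroid supply, 18 were tested (Hsd11b2 was too low), 10 higher and 8 lower, with a median of 0.0032 (-0.028 to 0.021 with 1 library left out, so of either sign), and 0 passed in either direction. Nr3c1 was at 175, 165, 169 and 185 CPM in controls and 163, 172, 173 and 175 CPM in the BPA group (fold 0.985, 95% interval 0.917 to 1.06). Nr3c2 was at 209, 215, 229 and 251 CPM in controls and 230.04, 236, 225 and 197 CPM in the BPA group (fold 0.984, 95% interval 0.888 to 1.09). The 4 genes with the smallest p were all lower: the coactivators Ncoa2 (-0.084 ± 0.046) and Ncoa3 (-0.065 ± 0.054), the co-chaperone Ptges3 (-0.078 ± 0.055) and H6pd (-0.12 ± 0.083), which supplies the cofactor for local glucocorticoid regeneration. For each of them the groups overlapped. Ncoa2 was at -0.053 and Ncoa3 at -0.037 without control replicate 3, Ncoa3 at -0.100 without BPA replicate 3 and -0.037 without BPA replicate 4, Ptges3 at -0.032 without control replicate 4, and H6pd at -0.064 without control replicate 2. Nr3c2, Ncoa3 and Gpd1 share exonic bases with a gene on the opposite strand, which makes their counts uncertain.

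Outside the 10 genes, those whose within-group deviations were most like the mean deviation of the list, among 12930 named genes at 1 CPM or more, were Nfkbia (r = 0.98 over 8 libraries), Arl4d (0.96), Hcls1 (0.95), Crnkl1 (0.94) and Etnppl (0.94). These values are the top of a ranking of many genes over few libraries and were not tested. An r over 0.8 was reached by 0.742% of the 12930 genes. Plin4, which had the widest deviations of the 10 genes, weighs on the mean deviation used for it. Nfkbia, the inhibitor of NF-kappa-B, was at 14.4, 12.8, 17.4 and 12.2 CPM in controls and 12.2, 13.7, 15.8 and 17.1 CPM in the BPA group (0.050 ± 0.12). Nfkbia and Arl4d both stand on the list of further glucocorticoid-induced genes, an overlap that was not tested and from which nothing is read. Etnppl, a phospholyase of astrocytes, had a log2 fold change of 0.15 ± 0.19, Hcls1 0.034 ± 0.088 and Crnkl1 0.086 ± 0.048.

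Within groups, each of the 10 genes was also set against library depth and 12 scores (mean log2 CPM) of cell type, activity and clock markers, 130 relations in all. By the exact permutation test, 11 had an unadjusted p under 0.05 and 0 an adjusted p under 0.05 (lowest 0.282). A single relation at the smallest possible p would not pass adjustment over 130 relations. The count of 0 is therefore not a negative result for any measure. The highest r was that of Plin4 with the meningeal fibroblast score (r = 0.94, exact permutation p = 0.0139, adjusted p = 0.361; rho = 0.81, exact p = 0.0278, adjusted p = 0.645), with r of 0.87 without control replicate 2 and BPA replicate 3, the libraries farthest from the median score. The 8 meningeal markers, all 8 detected, summed to 94.7 to 218 CPM in controls and 103 to 230.2 CPM in the BPA group, and their score was highest in BPA replicate 3, the library with the most Plin4. The part of meningeal tissue in the Plin4 values was not tested further.

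**Figure D5:**
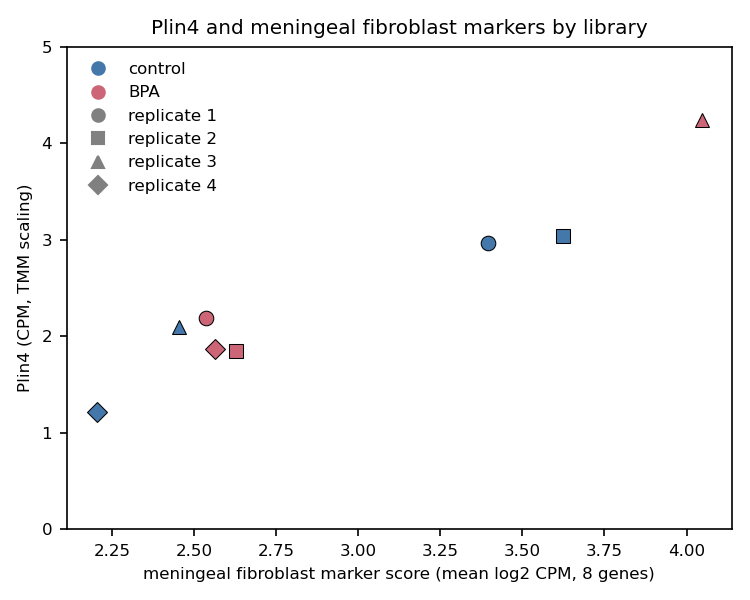
Plin4 (y axis, CPM with TMM scaling) against the mean log2 CPM of 8 meningeal fibroblast markers (x axis) in the 8 libraries, blue for control and red for BPA. BPA replicate 3 is highest on both axes and control replicate 4 lowest on both.

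Ependymal cells line the ventricles, and their marker score had a negative r with 9 of the 10 genes, the strongest with Errfi1 (r = -0.87, exact permutation p = 0.00347, adjusted p = 0.282; rho = -0.93, exact p = 0.00694, adjusted p = 0.451; -0.83 without control replicate 2 and BPA replicate 1). For Cdkn1a it was -0.86 (exact permutation p = 0.00868, adjusted p = 0.282; rho = -0.93, exact p = 0.00694, adjusted p = 0.451; -0.93 without the same libraries). For Sgk1 it was -0.84 (exact permutation p = 0.00694, adjusted p = 0.282; rho = -0.83, exact p = 0.0243, adjusted p = 0.645; -0.92 without the same libraries). Tsc22d3 had r of -0.77 (exact permutation p = 0.0451, adjusted p = 0.544; rho = -0.38, exact p = 0.351, adjusted p = 0.860), which was 0.17 without those libraries and so rests on them. With the oligodendrocyte score r was -0.85 for Cdkn1a (exact permutation p = 0.0174, adjusted p = 0.376; rho = -0.81, exact p = 0.0451, adjusted p = 0.652) and -0.84 for Sgk1 (exact permutation p = 0.0295, adjusted p = 0.451; rho = -0.76, exact p = 0.0660, adjusted p = 0.660). Without control replicates 2 and 3 these were -0.65 and -0.70. The 8 ependymal markers, all 8 detected, were lower in BPA mice (8 of 8, 0 past the adjusted threshold) and summed to 20.9 to 41.8 CPM in controls and 17.9 to 28.5 CPM in the BPA group. The 41.8 CPM was control replicate 2, with the other controls at 20.9 to 25.0 CPM, and the 28.5 CPM was BPA replicate 1. All 12 choroid plexus markers were lower in BPA mice too, 0 past the adjusted threshold. They summed to 291, 3182, 216 and 315 CPM in controls and 369, 171, 852 and 237 CPM in the BPA group. The 3182 CPM was control replicate 2, and the lower level in BPA mice rests largely on that library. The part of the ependymal markers in the results for the 10 genes was not tested. The choroid plexus score gave r from -0.59 to 0.64 with the 10 genes and library depth from -0.58 to 0.55, none with an unadjusted p under 0.05. With the choroid plexus score as a covariate the median log2 fold change of the 10 genes was 0.16, and 10 of 10 were above 0. Without control replicate 2 and BPA replicate 3 together the median was 0.12 and 7 of 10 were above 0. With log2 library total as a covariate the median was 0.32 and 8 of 10 were above 0, with Plin4 at -0.24 and Zbtb16 at -0.039. As every BPA library was deeper than every control library, that fit cannot fully tell depth and exposure apart. Neither immediate early genes nor clock genes gave an unadjusted p under 0.05 with any of the 10. Their r ran from -0.30 to 0.80 for the immediate early score and from -0.49 to 0.45 for the clock score. The 0.80 was that of Errfi1 (exact permutation p = 0.0833, adjusted p = 0.570), and was 0.32 without control replicate 2 and BPA replicate 4.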

How the data were processed

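The authors deposited a table of raw read counts per gene symbol, in whole numbers that are not normalized, for 8 poly(A)-selected stranded (ScriptSeq v2) libraries. The submitters' processing notes list STAR 2.3.0e, featureCounts 1.5.0, Trimmomatic 0.32, DESeq2 and the mm10 build, and per the file headers genes follow refGene. No label gives the strand setting. Columns were matched to samples by the library code in each title. Replicates of a group differed by more than counting noise (12 pairs, chi-square over degrees of freedom from 10.2 to 24.8).

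From the deposited counts, edgeR 4.0.16 (R 4.3.3) was run with filterByExpr, TMM scaling, 1 group term and Benjamini-Hochberg adjustment over all 15434 genes tested, threshold 0.05, two-sided. Standard errors come from the test statistic. Log2 CPM used a prior count of 2. Correlations used deviations from group means, with libraries permuted within groups in every arrangement. Limma-voom (limma 3.58.1) and DESeq2 1.42.0 were alternatives. The tests were tested on simulated data. Gene positions and exonic bases come from GENCODE vM21 (GRCm38, the assembly of mm10) and promoter sequences from RefSeq (GRCm38.p6).

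The members and lists were chosen with earlier results of these data known. Named are the 10 genes, the 4 genes with the smallest p in each of the 2 pathway lists, Nr3c1, Nr3c2 and Fkbp5, the 5 genes most like the list, and pairs past the threshold plus Mt1 with Mt2. As no pair passed, the other pairs named were chosen after their values were seen. Marker lists for 10 cell or tissue types, immediate early genes and clock genes were used as scores. The blood list had 1 tested member of 5, as the haemoglobin genes are listed at 0 in all libraries. Shared replicate numbers do not pair the animals in the labels.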

Additional observations from a re-analysis of the deposited data

Results flagged for a closer look

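Of 80 groups of 4 libraries examined, 6 held a library far from the other 3 by Dixon's criterion, and chance alone gives such a flag in about 1 group in 20. Among the glucocorticoid-induced genes, Mt1 in control replicate 3 was at 222 CPM, where the other controls were at 168 to 175 CPM. Plin4 in BPA replicate 3 was at 4.24 CPM, where the other BPA libraries were at 1.85 to 2.19 CPM. In the same library the meningeal fibroblast score was 4.05, against 2.54 to 2.63 in the other BPA libraries. The ependymal score was 1.48 in BPA replicate 1, against 0.714 to 0.792 in the other 3. Crnkl1 in control replicate 3 was at 48.5 CPM, against 45.7 to 45.9 CPM. BPA replicate 2 held 54.0 M counts, against 43.1 to 44.0 M.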

How the results depend on the processing

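Replicates differed by more than counting noise, and every BPA library was deeper than every control. The count of genes called was 0 in 17 of 18 alternatives and 7 with DESeq2 without the filter. The median log2 fold change of the 10 genes stayed above 0 in all 18 (0.12 to 0.32), was 0.13 to 0.26 with 1 library left out, and moved to 0.32 with log2 library total as a covariate. The mean correlation within groups was 0.22 to 0.36 with 1 library left out, 0.26 with library totals only and 0.37 without control replicate 2 and BPA replicate 3 together. No pair passed adjustment in the 6 alternatives that kept all 8 libraries, where a single pair at the smallest possible p would not pass either. With libraries left out the arrangements are fewer still. The counts of 0 in these alternatives therefore say nothing about a single pair. The cause of these shifts was not tested.

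Signs reversed in 19 named-gene values, and 413 kept direction and call. With library total as a covariate, Gpd1 was at 0.10, Nr3c1 0.020, Nr3c2 0.087, Plin4 -0.24, Ptges3 0.051 and Zbtb16 -0.039. With 1 library left out, the range was -0.050 to 0.29 for Etnppl, -0.031 to 0.16 for Nfkbia, -0.045 to 0.0087 for Nr3c1, -0.059 to 0.030 for Nr3c2 and -0.27 to 0.23 for Plin4. Without control replicate 4, Nfkbia was at -0.013, Nr3c1 0.0087, Nr3c2 0.030 and Plin4 -0.10. Without BPA replicate 3, Plin4 was at -0.27. Without BPA replicate 4, Etnppl was at -0.050, Nfkbia -0.031 and Nr3c2 0.030. Without control replicate 2 and BPA replicate 3 together, Cdkn1a was at -0.023, Errfi1 -0.028, Hcls1 -0.0098, Nfkbia -0.036 and Plin4 -0.14.

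Same-numbered animals did not deviate together (r of deviations -0.12, -0.37, -0.30 and 0.070), and no label pairs them by number. These values alone cannot show that no pairing exists. With the replicate block the median was 0.17 with 10 of 10 above 0 and 0 genes called.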

Other observations

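Marker lists not described above were also read, each with 0 genes past the adjusted threshold (edgeR). In BPA mice 5 of 7 interneuron markers, 5 of 8 astrocyte, 3 of 8 oligodendrocyte, 3 of 8 microglial and 5 of 12 endothelial and pericyte markers were higher. The astrocyte markers nevertheless summed to 9638 to 11204 CPM in controls and to less, 8488 to 9687 CPM, in the BPA group. Their mean score was 7.91 in both groups. Of 8 immediate early genes 7 were higher, and of 13 clock genes 11, where 50.0% of all genes tested were. The immediate early score was 5.30, 4.37, 5.16 and 5.00 in controls and 5.08, 5.17, 5.33 and 4.82 in the BPA group. The low control level of that score rests on control replicate 2. Within groups Tsc22d3 had its highest r with the astrocyte score (r = 0.86, exact permutation p = 0.0243, adjusted p = 0.451; rho = 0.83, exact p = 0.0347, adjusted p = 0.645; r = 0.75 without BPA replicates 1 and 4). Errfi1 had its highest r with the interneuron score (r = 0.89, exact permutation p = 0.00694, adjusted p = 0.282; rho = 0.78, exact p = 0.0313, adjusted p = 0.645; r = 0.92 without control replicates 1 and 2).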
